A study of Mus musculus with 8 samples.

Results

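The Sox transcription factors examined here are 10 genes, Sox1, Sox2, Sox3, Sox4, Sox5, Sox6, Sox8, Sox9, Sox10 and Sox11, chosen by symbol and matched to their Ensembl identifiers. All 10 were found among the 40562 genes of the astrocyte count table and the 47729 genes of the neural stem cell (NSC) count table. The study compared mice carrying a serine-to-glycine change at the glycosylation site of dentin matrix protein 1 (S89G-DMP1) with wild type (WT) C57BL/6 mice, in 8 libraries. Primary astrocyte cultures from cortex, grown with fetal bovine serum, gave 1 WT-AST and 1 S89G-AST library, and neurospheres from the sub-ventricular zone, grown in serum-free medium with N2 supplement, gave 3 WT-NSC and 3 S89G-NSC libraries. All samples are labelled as 10 weeks of age, and the methods give an older age for the mice used for astrocyte culture. S89G-DMP1 mice were made by knock-in in C57BL/6J embryonic stem cells through chimeras made in Balb/c blastocysts, a FLP line of B6.129S4 origin was used to remove the selection cassette, homozygotes came from crosses of heterozygotes, and the methods do not state whether the WT mice were littermates. Neither the number of mice per culture nor whether the numbered NSC libraries came from separate cultures is given, so p-values measure the spread between these libraries only, which may be technical.

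Sox proteins share a DNA-binding HMG box that bends DNA, and they act with partner factors such as POU proteins. The SoxB1 group (Sox1, Sox2 and Sox3) keeps neural progenitors undifferentiated, and the SoxC group (Sox4 and Sox11) acts in progenitors as they leave the cell cycle and in young neurons. SoxD proteins (Sox5 and Sox6) lack a transactivation domain of their own and work with SoxE proteins in cartilage and in the oligodendrocyte lineage. Among the SoxE group, Sox9 is required for the switch from neurons to glia, Sox8 is expressed in astrocytes and oligodendrocyte precursors, and Sox10 drives oligodendrocyte and Schwann cell differentiation.

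In GRCm38, Sox1 spans chr8:12395295-12400126, Sox2 chr3:34650405-34652461 and Sox9 chr11:112782224-112787760 on the plus strand. On the minus strand lie Sox3 (chrX:60891366-60893430), Sox4 (chr13:28948919-28953713), Sox11 (chr12:27334264-27342574), Sox5 (chr6:143828425-144781977), Sox6 (chr7:115470872-116038796), Sox8 (chr17:25565892-25570686) and Sox10 (chr15:79154908-79165240). Sox1, Sox2, Sox3, Sox4 and Sox11 have a single annotated exon.

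In the astrocyte libraries every one of the 10 Sox genes had a higher scaled level in S89G-AST than in WT-AST, 8 of them at least 2-fold, where 50.5% of all counted genes were higher and 17.3% at least 2-fold higher, whereas in NSCs the differences between genotypes were small. The share of all counted reads that fell on the 10 genes was 0.0122% in WT-AST and 0.0713% in S89G-AST, and lay between 0.178% and 0.186% in the 6 NSC libraries. The tables of the cell types were made separately, so these shares were not tested against each other. The NSC libraries held 2354615 to 2588130 counted reads each, WT-AST held 14008670 and S89G-AST 13016924.

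Cell type markers were examined before the Sox genes were compared. In the NSC libraries, Nes, which encodes the progenitor filament nestin, had 4572 to 5460 counts, and the radial glia gene Fabp7 had 2184 to 3450 counts. The mature astrocyte genes Gfap and Aqp4 had at most 6 and 12 counts there, and the Notch target Hes5 at most 14. Of 7 astrocyte markers examined in the astrocyte libraries, 5 had few reads in WT-AST, with 90 counts of Gfap, 8 of Aqp4, 8 of Slc1a3, 51 of Slc1a2 and 47 of Aldh1l1, against 901, 4051, 3877, 621 and 1792 counts in S89G-AST. The other 2 did not follow them, with Gja1 at 1165 and 1913 counts (under 2-fold) and S100b at 64 and 30. Glul, a glutamine synthetase gene of astrocytes, had 4247 counts in WT-AST and 3709 in S89G-AST, and Apoe had 14676 and 27137. Of 14 fibroblast and meningeal markers, 13 were counted in astrocytes and 12 of these were at least 2-fold lower in S89G-AST, and their summed level was 9474 CPM (the usual depth-scaled count, here with TMM library sizes) in WT-AST and 2122 CPM in S89G-AST. Mural markers summed to 3381 and 4057 CPM (of 9 counted, 1 at least 2-fold higher and 4 lower), endothelial markers to 202 and 74.1 CPM (of 8, 2 higher and 5 lower), and microglia markers to 755 and 1059 CPM (of 10, 3 higher and 1 lower). In NSCs few of these were read, and edgeR called Pdgfra lower of 3 fibroblast markers tested, Cspg4 lower of 2 mural markers and Flt1 higher (log2 fold change 1.79) as the 1 endothelial marker tested, with 0 microglia markers tested and 1 of 6 sex-linked genes (Uba1y) called lower. DESeq2 called 0 of the 3 fibroblast markers. The astrocyte libraries also differed in sex-linked genes, with 12172 counts of Xist in WT-AST and 74 in S89G-AST, and 0 and 1277 counts of the Y-linked Ddx3y, while the methods name mice of both sexes for these cultures. Since these values differ between the libraries together with the Sox genes, the part of cell composition and sex in the Sox differences was not tested, and with 1 library per genotype it cannot be told apart from genotype. In such bulk libraries, fewer cells of a type and less RNA per cell cannot be told apart either.

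The promoters of Sox1, Sox2 and Sox4 are shown because Sox1 and Sox2 had the largest log2 ratios of the 10 members in astrocytes and Sox4 the smallest. The top places depend on the pseudocount, since Sox1 and Sox3 had 0 counts in WT-AST. With a prior count of 0.5, Sox3 (6.68) lay above Sox2 (6.29), and on log2(FPKM + 1) Sox6 (3.80) lay above Sox1 (3.51). The sequences are RefSeq windows of build GRCm38.p6 from 250 bases before to 50 bases after the start, printed 5′ to 3′ on the strand of the gene. Capitals mark the CCAAT box (CCAAT or ATTGG) and the GC box (GGGCGG or CCGCCC). Sox1 lies at chr8:12395269-12395568 on the plus strand, Sox2 at chr3:34649745-34650044 on the plus strand, and Sox4 at chr13:28953650-28953949 on the minus strand. The starts of these windows differ from the GENCODE starts given above. The Sox2 window ends before the GENCODE start at 34650405, and most of the Sox1 window lies after the GENCODE start at 12395295.
Sox1: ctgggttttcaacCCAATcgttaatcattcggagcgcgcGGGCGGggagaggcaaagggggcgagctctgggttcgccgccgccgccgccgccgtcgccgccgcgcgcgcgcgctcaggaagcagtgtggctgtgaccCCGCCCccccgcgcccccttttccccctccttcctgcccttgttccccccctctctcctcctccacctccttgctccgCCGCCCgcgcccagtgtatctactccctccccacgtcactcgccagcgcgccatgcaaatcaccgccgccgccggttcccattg
Sox2: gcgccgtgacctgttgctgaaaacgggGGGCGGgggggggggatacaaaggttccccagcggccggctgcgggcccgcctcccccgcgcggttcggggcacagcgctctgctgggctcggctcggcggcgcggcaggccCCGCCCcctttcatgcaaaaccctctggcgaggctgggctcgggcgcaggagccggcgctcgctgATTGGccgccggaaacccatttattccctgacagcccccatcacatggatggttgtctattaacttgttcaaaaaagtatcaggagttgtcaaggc
Sox4: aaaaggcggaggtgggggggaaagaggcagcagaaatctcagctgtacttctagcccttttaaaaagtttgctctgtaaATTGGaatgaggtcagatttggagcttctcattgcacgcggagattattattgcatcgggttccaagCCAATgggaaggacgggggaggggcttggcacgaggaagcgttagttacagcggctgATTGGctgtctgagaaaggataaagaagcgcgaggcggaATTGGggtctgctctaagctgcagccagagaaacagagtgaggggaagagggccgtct
On both strands, the Sox1 window holds 1 CCAAT box and 3 GC boxes, the Sox2 window 1 and 2, and the Sox4 window 4 CCAAT boxes and 0 GC boxes, with 0 bases in more than 1 match. Among all 32851 windows of the table, 37.4% hold a CCAAT box and 35.7% a GC box. The windows hold 37, 27 and 12 CpG sites for Sox1, Sox2 and Sox4, where the median over all windows is 7. The TATA box (TATAAA or TTTATA) and the Sox motif AACAAT (or ATTGTT), which 13.6% and 10.7% of all windows hold, were found in none of these 3. Windows were given for 7 of the 10 genes, and those of Sox3, Sox9 and Sox10 are not among them.

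The SoxB1 genes were nearly or fully unread in the WT-AST library. Sox2, the factor most used to mark neural stem cells, had 30 counts in WT-AST (2.37 CPM) and 2705 in S89G-AST (188 CPM), a ratio of 79.3 with a 95% exact interval from 55.4 to 118. These intervals cover counting error only, since there is 1 library per genotype. Sox1, a marker of neuroectoderm, had 0 counts in WT-AST and 655 in S89G-AST, which is at least 156-fold higher by the 95% exact counting limit (192-fold against a floor of 3 counts in WT-AST). Sox3, which lies on the X chromosome, had 0 counts in WT-AST and 54 in S89G-AST, at least 12.4-fold higher by the same limit (15.8-fold against the floor). The non-coding gene Sox2ot, whose introns contain Sox2, had 3 and 417 counts in WT-AST and S89G-AST, and Sox1ot, which overlaps Sox1 on the same strand, had 1 and 118 counts. Neither shares an exonic base with the Sox gene in the GENCODE annotation. Summed over the group, SoxB1 was at 2.37 CPM in WT-AST and 237 CPM in S89G-AST.

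SoxD genes followed at a smaller size. Sox6 had 31 counts in WT-AST and 1494 in S89G-AST, a ratio of 42.4 (95% exact counting interval 29.7 to 62.6). Its SoxD partner Sox5 had 26 and 117 counts, a ratio of 3.96 (95% exact counting interval 2.57 to 6.31). Together the pair went from 4.50 CPM to 112 CPM, and Sox6 made up most of the sum in S89G-AST.

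The SoxE genes were spread widely. Sox8 had 43 counts in WT-AST and 628 in S89G-AST, a ratio of 12.8 (95% exact counting interval 9.42 to 17.9), with the limit that the antisense gene 2810468N07Rik shares 329 exonic bases with it and had 20 and 30 counts, and the library kit does not mark strand. Sox9, the most abundant SoxE gene in these cultures, had 539 and 1820 counts, a ratio of 2.97 (95% exact counting interval 2.69 to 3.27). Sox10 had 41 and 83 counts, a ratio of 1.78 (95% exact counting interval 1.21 to 2.65), and was under 2-fold.

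Within the SoxC pair, both genes were read in both cultures. Sox11 had 94 counts in WT-AST and 569 in S89G-AST, a ratio of 5.32 (95% exact counting interval 4.27 to 6.69). Sox4, which is expressed in many tissues besides brain, had 910 and 1162 counts, a ratio of 1.12 (95% exact counting interval 1.03 to 1.23). Sox4 was thus the Sox gene with the most reads in WT-AST and the smallest ratio. The SoxC sum was 79.3 CPM in WT-AST and 120 CPM in S89G-AST.

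**Figure D1:**
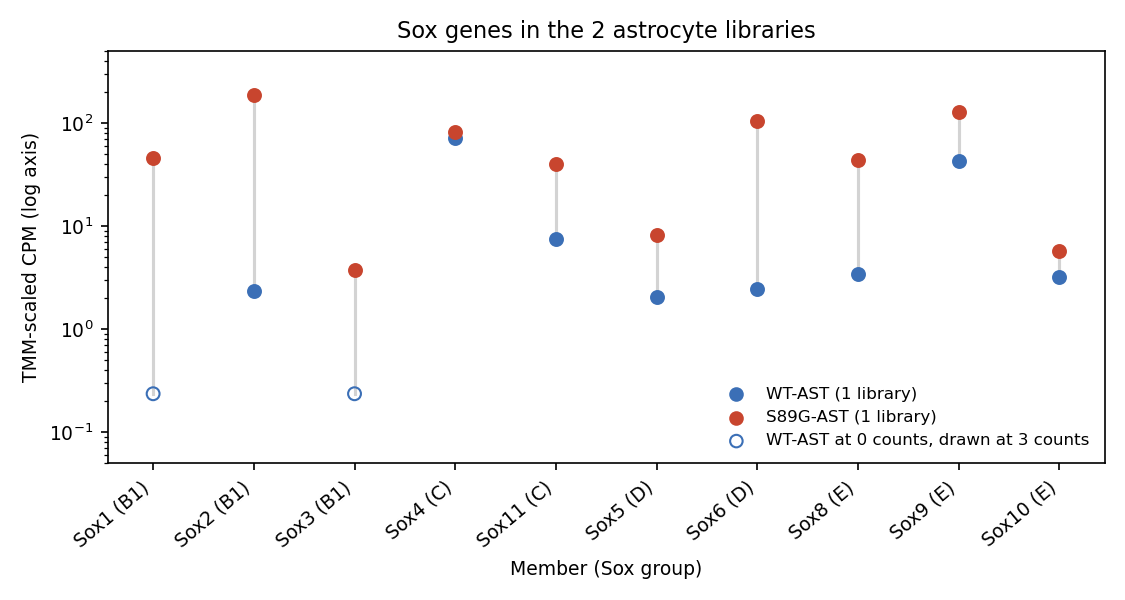
TMM-scaled CPM (log axis) of the 10 Sox genes in the WT-AST library (blue) and the S89G-AST library (red), 1 library each, with 0 counts drawn as an open circle at 3 counts. Sox1 and Sox3 had 0 counts in WT-AST, and the points of Sox4 (ratio 1.12) and Sox10 (ratio 1.78) lie closest together.

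As background, among 15680 genes that reached 10 counts in WT-AST or S89G-AST, 17.3% were at least 2-fold higher in S89G-AST and 12.8% at least 2-fold lower (30.1% either way), against 8 and 0 of the 10 Sox genes. The median log2 ratio of the 10 genes was 3.01 (3.05 with counts of 3 or fewer set to 3), and that of all counted genes was 0.01. Scaling by library size alone moved the median of all counted genes to 0.30 and that of the Sox genes to 3.29, with 9 of 10 at least 2-fold higher, since Sox10 then had a log2 ratio of 1.09. No test was run, because each genotype has 1 astrocyte library.

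Levels of different genes were compared per length. In FPKM, the authors' fragments scaled for gene length and library size, the order in WT-AST was led by Sox4 (13.5 FPKM) and Sox9 (9.30 FPKM), followed by Sox8 (2.08), Sox10 (1.08) and Sox2 (1.04 FPKM). In S89G-AST the order was led by Sox2 (101 FPKM), with Sox9 (33.8), Sox8 (32.8), Sox4 (18.6) and Sox6 (17.7 FPKM) next. Sox3 was lowest in S89G-AST at 2.01 FPKM, below Sox10 at 2.35 FPKM. With 1 library each, the order within a library has no replicate spread.

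For the NSCs, the CPM of each library was divided by the gene length implied by the deposited astrocyte counts and FPKM. Sox8 and Sox2 were the highest Sox genes per length in WT-NSC, at 190 ± 11.6 and 156 ± 2.62 CPM per kb (SD, n = 3), and in S89G-NSC, at 188 ± 4.10 and 168 ± 12.9 CPM per kb (SD, n = 3). Sox9 was next at 53.1 ± 4.28 and 52.9 ± 2.66 CPM per kb (SD, n = 3) in WT-NSC and S89G-NSC. In WT-NSC the following places were held by Sox4 (49.2 ± 3.94), Sox11 (42.8 ± 1.66), Sox6 (37.6 ± 0.351) and Sox3 (34.8 ± 5.85 CPM per kb, SD, n = 3). Sox5 (22.0 ± 2.87) and Sox1 (9.63 ± 1.39) were lower, and Sox10 was near the limit of detection (0.846 ± 0.209 CPM per kb, SD, n = 3). In WT-NSC the libraries of neighbours in this order overlapped for Sox9 with Sox4 and for Sox6 with Sox3, and in S89G-NSC only for Sox3 with Sox4. Sox3 also overlapped Sox11 in both genotypes, so its place among these genes is not settled. The order of Sox8 and Sox2 rests on implied lengths of 1.47 kb and 2.06 kb, taken from the separately processed astrocyte data. In CPM not divided by length, Sox2 lay above Sox8, at 321 and 280 CPM in WT-NSC and 345 and 276 CPM in S89G-NSC (means).

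**Figure D2:**
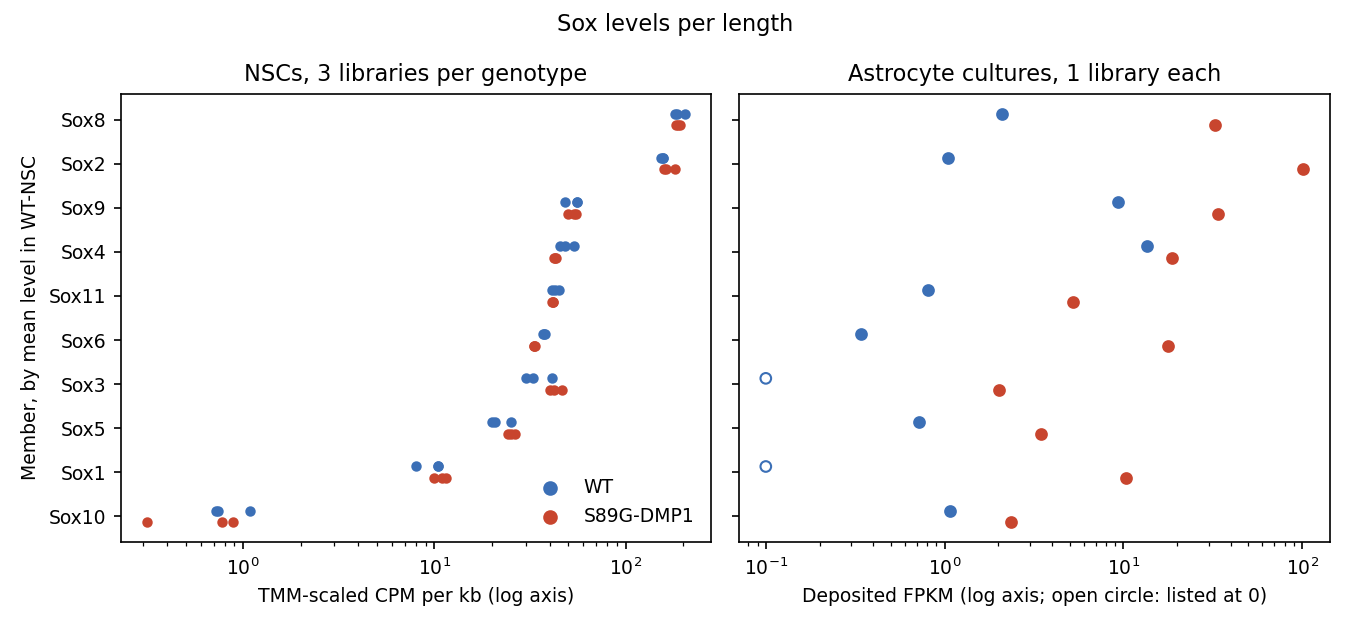
Sox levels per length (log axes), as TMM-scaled CPM per kb in 3 libraries per NSC genotype (left, each dot a library) and as the deposited FPKM in 1 astrocyte library per genotype (right, open circles listed at 0). Sox8 and Sox2 lead in NSCs of both genotypes, whereas Sox4 leads in WT-AST at 13.5 FPKM and Sox2 in S89G-AST at 101 FPKM.

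The deposited NSC TPM values could not serve for this order. Sox2 had 747 to 890 counts per library and was listed at 0 TPM in 5 of the 6 libraries, Sox11 had 807 to 887 counts and was listed at 0 in 6, Sox3 in 4 and Sox4 in 3. All 4 are among the 5 single-exon members. Sox1, with 92 to 132 counts, was listed above 0 in every library, as were the 5 members with introns. In WT-NSC replicate 1, where Sox2 was listed above 0, Sox2 was at 403 TPM and Sox8 at 246 TPM, the reverse of their order per length. Over all genes with at least 100 counts in every NSC library, 56 of 71 genes with single-exon transcripts only (78.9%) were listed at 0 TPM in at least 1 library, against 17 of 5109 genes with a transcript of more exons (0.333%).

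In NSCs, 9 of the 10 Sox genes passed the filter on low counts and were tested, and 3 changed (adjusted p below 0.05 over all genes by Benjamini-Hochberg, from the quasi-likelihood test of edgeR). Sox3 was called higher and Sox4 and Sox6 lower in S89G-NSC, by at most 1.24-fold. Over all 11194 genes tested, 7.08% were called higher and 8.76% lower. The median log2 fold change of the 9 tested Sox genes was -0.01, and that of all tested genes was 0.00256. All 3 calls are sensitive to the processing, and DESeq2 called 0 of the 9 genes, with adjusted p of 0.171 for Sox3, 0.134 for Sox4 and 0.217 for Sox6. At an unadjusted p under 0.05, DESeq2 gave 1 Sox gene higher and 2 lower, and edgeR 2 higher and 2 lower.

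Sox3 had 67.4, 62.5 and 85.5 CPM in the WT-NSC libraries and 96.0, 86.9 and 83.4 CPM in the S89G-NSC libraries. The highest WT-NSC library lay above the lowest S89G-NSC library, so the groups overlapped. Its log2 fold change was 0.30 ± 0.10 (standard error), with an adjusted p of 0.0204 from edgeR's quasi-likelihood test. The call was lost without WT-NSC replicate 1 (adjusted p = 0.0761, edgeR), WT-NSC replicate 2 (0.202) or S89G-NSC replicate 1 (0.124). The other SoxB1 genes had values above 0 that did not pass. Sox2 had 315, 324 and 324 CPM in WT-NSC and 375, 326 and 333 CPM in S89G-NSC. The groups did not overlap, and the lowest S89G-NSC library lay next to the highest of WT-NSC. Its log2 fold change was 0.10 with a 95% interval from -0.02 to 0.22 (adjusted p = 0.259, edgeR), and groups that do not overlap with S89G-NSC above were seen for 14.8% of all genes tested. For Sox1, 38.8, 50.5 and 50.3 CPM in WT-NSC stood against 48.0, 55.6 and 52.9 CPM in S89G-NSC, with a log2 fold change of 0.16 (95% interval -0.07 to 0.39, adjusted p = 0.383, edgeR).

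Sox4 had 219, 232 and 256 CPM in WT-NSC and 206, 202 and 207 CPM in S89G-NSC. Every S89G-NSC library was below every WT-NSC library, a separation seen for 16% of all genes tested (p = 0.1 by 2-sided exact permutation, the minimum with 3 libraries a group). In edgeR the adjusted p was 0.0203 and the log2 fold change -0.20 ± 0.06 (standard error), and the call was lost without WT-NSC replicate 3 (adjusted p = 0.209), S89G-NSC replicate 1 (0.0524) or S89G-NSC replicate 2 (0.0871). The lincRNA Gm26735 on the opposite strand shares 2616 exonic bases with Sox4 and had 0 counts in all libraries. Sox11, the other SoxC gene, had 370, 343 and 354 CPM in WT-NSC and 348, 345 and 344 CPM in S89G-NSC, which overlapped. Its log2 fold change was -0.04 (95% interval -0.15 to 0.07, adjusted p = 0.692, edgeR).

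Among the SoxD genes, Sox6 was at 241, 246 and 244 CPM in WT-NSC and 216, 216 and 218 CPM in S89G-NSC, close within each group and with no overlap between them (p = 0.1 by 2-sided exact permutation, again the minimum). Its log2 fold change was -0.17 ± 0.06 (standard error) and its adjusted p of 0.0499 (edgeR) lay just under the threshold. Each of the 6 fits that left out 1 library lost the call, with adjusted p between 0.0646 and 0.134 in edgeR, and with the replicate number as a block the adjusted p was 0.0537. Sox5, its SoxD partner, pointed the other way without passing, at 65.3, 53.6 and 51.5 CPM in WT-NSC and 62.8, 65.1 and 68.6 CPM in S89G-NSC. The log2 fold change of Sox5 was 0.21 (95% interval 0.00163 to 0.42, unadjusted p = 0.0483, adjusted p = 0.176, edgeR), and it passed only in the fit without WT-NSC replicate 1 (adjusted p = 0.0461).

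Neither tested SoxE gene was called. Sox8 had 267, 299.5 and 274 CPM in WT-NSC and 270, 277 and 282 CPM in S89G-NSC. Its log2 fold change was -0.02 (95% interval -0.14 to 0.10, adjusted p = 0.871, edgeR), and the antisense gene 2810468N07Rik had 52 to 66 counts per library against 633 to 771 for Sox8. Sox9 had 231, 199 and 229 CPM in WT-NSC and 227, 223 and 206 CPM in S89G-NSC, with a log2 fold change of -0.01 (95% interval -0.14 to 0.12, adjusted p = 0.964, edgeR). The groups overlapped for both genes. Sox10 had 7, 5 and 5 counts in WT-NSC and 5, 2 and 6 counts in S89G-NSC and did not pass the filter, so a difference was not detectable at this depth.

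**Figure D3:**
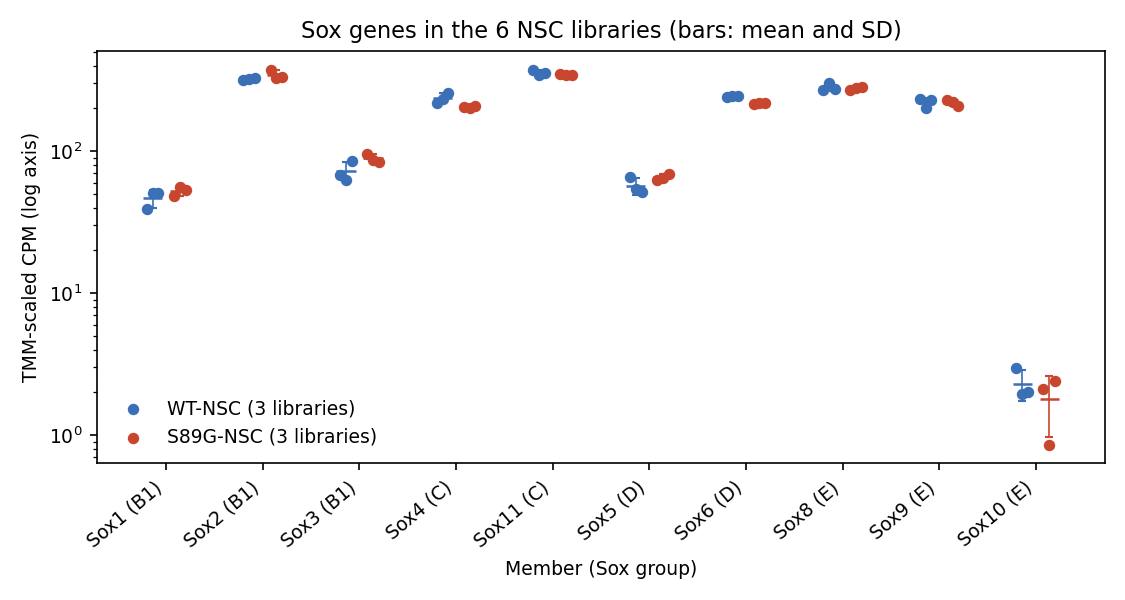
TMM-scaled CPM (log axis) of the 10 Sox genes in 3 WT-NSC (blue) and 3 S89G-NSC (red) libraries, with the mean and SD of each group. Sox4 and Sox6 show S89G-NSC libraries below all WT-NSC libraries, and Sox10 lies at 2.95 CPM or less in every library.

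**Figure D4:**
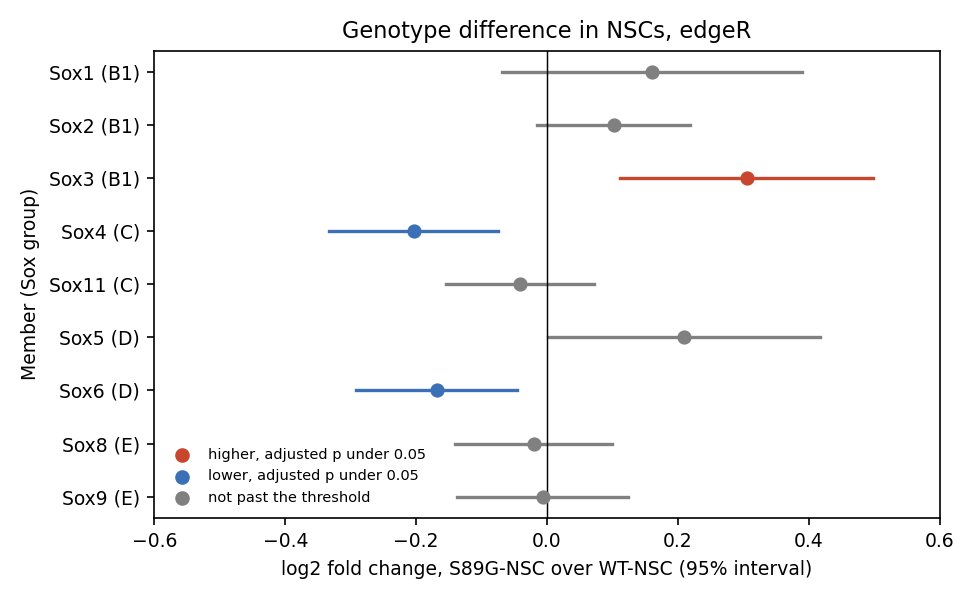
Log2 fold change of S89G-NSC over WT-NSC with its 95% interval from edgeR's quasi-likelihood fit for the 9 tested Sox genes, coloured by call. The 3 called genes lie between -0.20 (Sox4) and 0.30 (Sox3), and the intervals of the other 6 genes reach at most 0.42.

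By group, the CPM summed over members ran from 421 to 460 in WT-NSC and from 468 to 519 in S89G-NSC for SoxB1. For SoxC it ran from 575 to 610 in WT-NSC and from 547 to 553 in S89G-NSC. SoxD sums were 296 to 306 and 278 to 287 CPM. The first of these sums lay higher and the other 2 lower in S89G-NSC with no overlap, and the SoxE sums overlapped, at 501 to 505 and 491 to 501 CPM. Groups that do not overlap were seen for 30.7% of all single genes tested. Among single members, only Sox2, Sox4 and Sox6 did not overlap, and Sox5 pointed opposite to Sox6, so a sum does not stand for each member. These sums are a description and were not tested.

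Set side by side, Sox6 and Sox4, both called lower in NSCs, had opposite signs in the cell types. Sox6 had a log2 ratio of 5.32 in astrocytes and a log2 fold change of -0.17 in NSCs, and Sox4 had 0.17 and -0.20. All 10 Sox genes were above 0 in astrocytes, so any called lower in NSCs had opposite signs. Sox3, called higher in NSCs, had the same sign in both. The astrocyte ratio of Sox4 was under 2-fold. The difference between cell types was not tested, because the astrocyte side has 1 library per genotype.

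Among the 8138 other genes with a mean of at least 20 CPM, those whose log2 CPM followed the called Sox genes most closely over the 6 NSC libraries were Ift57 and Kif18b for Sox3 (Pearson r of 0.99 and 0.99), Rundc3a and Creb3 for Sox4 (0.99 and 0.99), and Fhl1 and Ip6k2 for Sox6 (r of 1.00 and 1.00 after rounding). These are the top values of 8138 genes over 6 libraries that differ by genotype, and 101, 155 and 567 genes had an r over 0.9 with Sox3, Sox4 and Sox6.

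Few other Sox genes were read in NSCs. Of 9 other Sox genes, 3 were tested in NSCs, and Sox21, a SoxB2 gene that counteracts SoxB1 factors, was called lower (log2 fold change -0.37 ± 0.08, standard error, adjusted p = 7.3e-04, edgeR), from 117 ± 11.4 to 90.4 ± 6.14 CPM (SD, n = 3). Sox12 and Sox13 did not pass (log2 fold changes of 0.08 and 0.49, adjusted p = 0.573 and 0.0892, edgeR). Of the 9, 5 were counted in astrocytes, with 2 at least 2-fold higher, 0 lower and a median log2 ratio of 0.82. Sox21 had 4 counts in WT-AST and 391 in S89G-AST (log2 ratio 5.88). Sox12, the remaining SoxC gene, had 265 and 673 counts (log2 ratio 1.15). The endothelial genes Sox7, Sox17 and Sox18 had at most 14 counts in either astrocyte library and at most 1 count per NSC library.

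Neural progenitor genes, which include POU factors that bind DNA with SoxB1 proteins, were 12 of 17 counted at least 2-fold higher and 1 lower in S89G-AST. Their median log2 ratio was 2.63. Rfx4 (2 and 1051 counts), the POU factor Pou3f2 (1 and 642 counts) and Fabp7 (23 and 4950 counts) had the largest log2 ratios, of 7.90, 7.62 and 7.45. The POU factors were mixed. Pou3f3 had 51 and 2575 counts, whereas Pou3f4, the gene at least 2-fold lower, had 148 and 73 (log2 ratio -1.18). Pou3f1, which is in the Schwann and neural crest list, had 10 and 3 counts. In NSCs, 5 of 17 tested were called higher and 1 lower, among them Fabp7 (log2 fold change 0.56) and the POU factor Pou3f3 (0.35), and Notch1 lower (-0.26). Nes did not pass, with a log2 fold change of -0.11 (adjusted p = 0.0951, edgeR).

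Glial genes that act with or downstream of Sox9 were at least 2-fold higher for 9 of 16 counted in astrocytes and lower for 1, with a median log2 ratio of 1.67. Aqp4 (8.50), the glutamate transporter Slc1a3 (8.43) and Sparcl1 (5.63) led, and Gfap had a log2 ratio of 3.11. In NSCs, 8 of 14 tested were called higher and 1 lower, with a median log2 fold change of 0.23. Aldh1l1, a folate enzyme used as an astrocyte marker, changed most (1.03 ± 0.05, standard error, adjusted p = 5.8e-25, edgeR), from 307 ± 7.07 to 629 ± 2.28 CPM (SD, n = 3), followed by the gap junction gene Gja1 (0.91) and Id3 (0.48). Nfia, which is induced by Sox9 in the developing spinal cord, was the gene called lower (-0.23), whereas Nfib (0.24) and Nfix (0.21) were called higher. Sox9 itself had a log2 fold change of -0.01 in the same libraries.

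In the oligodendrocyte lineage list, 8 of 14 counted genes were at least 2-fold higher and 3 lower in S89G-AST. Olig1 went from 4 to 2691 counts and Olig2 from 3 to 782, with Nkx6-2 at 0 and 139 counts. Pdgfra, a gene of oligodendrocyte precursors that is also in the fibroblast list, had 1755 and 100 counts (log2 ratio -4.29), and Myrf, which works with Sox10 on myelin genes, had 398 and 19 counts (-4.43). Olig1 and Olig2 were abundant in NSCs, at 2498 ± 117 and 1106 ± 30.4 CPM (SD, n = 3) in WT-NSC and 2571 ± 82.1 and 1169 ± 17.6 CPM (SD, n = 3) in S89G-NSC, and did not pass (adjusted p = 0.603 and 0.275, edgeR). Of 10 genes tested, Ugt8a was called higher (1.19), and Pdgfra (-0.84) and Cspg4 (-0.56) lower by edgeR, and DESeq2 called 1 of the 10.

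Neuronal differentiation genes, only some of which are known SoxC targets, were called lower for 5 of 14 tested in NSCs and higher for 1 by edgeR. DESeq2 called 3 of the 14. The largest of these changes were in Dlx1 (-1.42, at 2 to 17 counts per library), Prox1 (-0.52) and the RNA-binding protein gene Elavl3 (-0.43). The gene called higher was Elavl4 (0.35). Tubb3, a known target of Sox4 and Sox11, had a log2 fold change of 0.24 (adjusted p = 0.537, edgeR), and Dcx had 1 to 12 counts. In astrocytes 8 of 13 counted genes were at least 2-fold higher and Tubb3 was the 1 lower (850 and 280 counts).

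Cartilage genes of the Sox5, Sox6 and Sox9 trio were nearly absent from NSCs, where 2 of 14 were tested, 0 were called by edgeR or DESeq2, and 0 had an unadjusted p under 0.05 in edgeR. Col2a1 had at most 1 count and Acan at most 3 counts per NSC library. In astrocytes, 5 of 10 counted were at least 2-fold higher and 2 lower, and Col2a1 had 317 and 1031 counts while Acan had 1 in each library. Of the Schwann and neural crest genes, 5 of 12 counted were at least 2-fold higher and 3 lower in S89G-AST, with Ngfr at 86 and 283 counts and the neural crest factor Tfap2b at 1347 and 42. In NSCs 7 were tested, 0 were called by edgeR or DESeq2, and 0 had an unadjusted p under 0.05 in edgeR. Of 15 tested cofactors and transport factors of Sox proteins, 4 were called higher (Tle1, Ube2s, Xpo1 and Kpnb1) and Tle4 lower in NSCs by edgeR, and DESeq2 called 3 of the 15. In astrocytes 2 of 16 counted were at least 2-fold higher and 0 lower. Over all genes tested in NSCs, 15.8% were called in either direction, and the lists overlap in part (Pdgfra and Cspg4, for example, are in more than 1), so their counts are descriptions and not tests of a list.

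**Figure D5:**
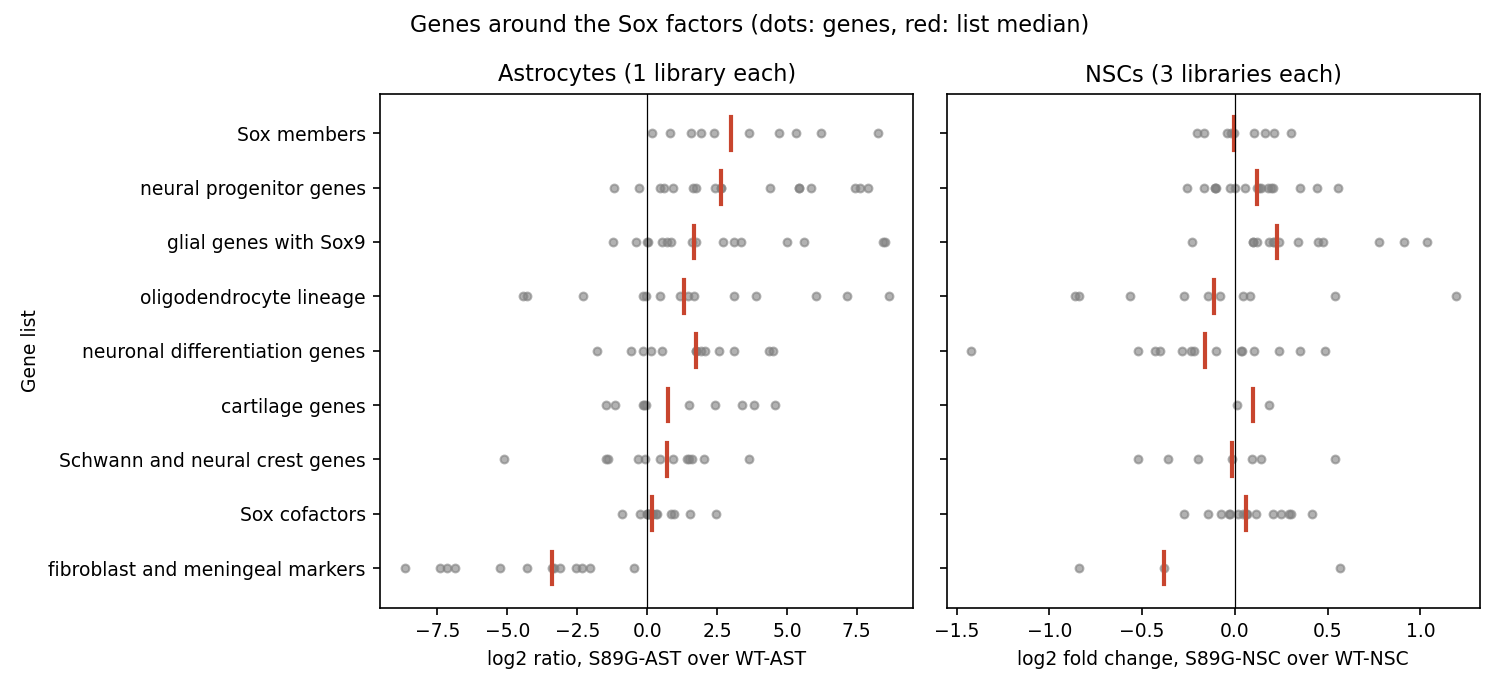
Log2 differences of S89G-DMP1 over WT for the genes of 9 lists, in 1 astrocyte library per genotype (left) and 3 NSC libraries per genotype (right), with grey dots for genes and red marks for list medians. Among the 9 lists drawn, the Sox members have the highest astrocyte median (3.01) and the fibroblast and meningeal markers the lowest (-3.39). Among lists not drawn, the other Sox genes have an astrocyte median of 0.82 and the sex-linked genes of 7.88. In NSCs the Sox members lie between -0.20 and 0.30.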

How the data were processed

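RNA sequencing of 8 libraries was examined. Per the labels and methods, the authors removed low-quality reads, aligned astrocyte reads with TopHat2 2.0.9 and Bowtie2 2.0.6, and deposited read counts per gene and FPKM. For the NSCs the authors deposited read counts and TPM, and the submitters' processing notes name HISAT2, StringTie, featureCounts and GRCm38. The astrocyte counting program, build and annotation are not given in the sources used here. Symbols were matched for 47224 of 47729 NSC and 39973 of 40562 astrocyte identifiers.

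For NSC counts, edgeR 4.0.16 (R 4.3.3) was used for the filter on low counts (filterByExpr), TMM factors and the quasi-likelihood test, Benjamini-Hochberg adjusted over all tested genes, at an adjusted p of 0.05. The procedure was also run on counts simulated from values fitted to these libraries, and no outcome of that run is used here. The changes put in were larger than those of the called Sox genes, so the run does not bear on their calls. Astrocyte log2 ratios were taken between TMM-scaled CPM (prior count 2) where WT-AST or S89G-AST reached 10 counts, with a 2-fold threshold and a floor of 3 counts, with no test. Alternatives used DESeq2 1.42.0 and limma 3.58.1, other scalings, filters, pseudocounts and thresholds, a replicate block, and each NSC library left out. Same-genotype NSC libraries had a mean chi-square of 1.07 to 1.51 per gene (1 from counting noise alone) and were kept as 3 samples. Positions and exons are those of GENCODE M21 (GRCm38). Members and gene lists were chosen with earlier results of these data known. All 10 members are named, with the at most 3 largest called or 2-fold genes and preset markers of each list, genes overlapping a member, and the 2 genes most correlated with each called member. Notch1, Nfia, Nfib, Nfix, Glul, Apoe, Elavl4, Kpnb1, Tle4, Pou3f1, Pou3f4, Sox7, Sox12, Sox13, Sox17 and Sox18 were named after their values were seen. Some genes that this rule would name are not reported here.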

Additional observations from a re-analysis of the deposited data

Results flagged for a closer look

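Sox6 and Sox4 were marked for a closer look because their log2 values had opposite signs in the cell types. All 10 members were above 0 in astrocytes, so any member lower in NSCs had opposite signs. For Sox6, every S89G-NSC library was below every WT-NSC library (log2 fold change -0.17), while the S89G-AST library was above the WT-AST library (log2 ratio 5.32). For Sox4 the corresponding values were -0.20 and 0.17. The astrocyte ratio of Sox4 was under 2-fold, and 41.4% of all counted genes had a larger ratio. DESeq2 called neither gene in NSCs. The difference between cell types was not tested, the astrocyte side rests on 1 library per genotype, and 30.7% of all genes tested in NSCs had groups that did not overlap.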

How the results depend on the processing

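In NSCs, edgeR called 1 Sox gene higher and 2 lower, and these counts depend on the processing. DESeq2 and limma on log2(TPM + 1) or log2(TPM + 0.1) called 0 higher and 0 lower, and with limma 0 and 0 had an unadjusted p under 0.05. RLE factors, no filter on low counts, and the replicate block each left 1 called lower, where Sox6 had an adjusted p of 0.0521, 0.109 and 0.0537 in edgeR. The replicate block changed no other call of a Sox gene, and the numbers share only a label, since deviations of same-numbered libraries correlated at 0.06, 0.02 and -0.0013. With each library left out in turn, 0 to 1 were called higher and 0 to 1 lower, and without WT-NSC replicate 1 the gene called higher was Sox5. Between 1 and 2 Sox genes on either side had an unadjusted p under 0.05 in those fits.

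Directions that turned were mostly those of uncalled genes. On log2(TPM + 1) and log2(TPM + 0.1), where single-exon genes are listed at 0, the log2 fold changes were -0.20 and -0.22 for Sox1, -2.89 and -3.99 for Sox2, -4.36 and -6.57 for Sox3, and 0.00704 and 0.00711 for Sox9. With each NSC library left out in turn, Sox9 ran from -0.0761 to 0.0335, turning without WT-NSC replicate 1, WT-NSC replicate 3 or S89G-NSC replicate 3, and Sox8 ran from -0.0537 to 0.0284, turning without WT-NSC replicate 2. The level order used 10 members counted in every library, of which 6 were above 0 TPM in every library. In astrocytes, the number at least 2-fold higher was 8 to 9 under the other scalings, pseudocounts and filters, 9 at 1.5-fold and 6 at 4-fold, with 0 lower in each, and no sign turned. Low counts limit Sox10 in NSCs and Sox1 and Sox3 in WT-AST.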
